A study of Caenorhabditis elegans with 6 samples.

Results

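The cells of the early *C. elegans* embryo hold together through a cadherin and catenin complex, and the same proteins later build the junctions of epithelia. HMR-1, the classical cadherin, spans the membrane and binds the beta-catenin HMP-2, which binds the alpha-catenin HMP-1, which in turn binds actin filaments. JAC-1, a catenin of another class, binds the cadherin tail close to the membrane. SAX-7, the worm homolog of the vertebrate L1 adhesion molecule, acts partly redundantly with HMR-1. AFD-1 is afadin, an adaptor between adhesion molecules and actin, TES-1 is the homolog of testin, a LIM domain protein of junctions under tension, and ERM-1 is the worm member of the ezrin, radixin and moesin (ERM) family, which ties the plasma membrane to cortical actin. DLG-1, a Discs large scaffold, and AJM-1, a coiled-coil protein, form a second junctional domain in the epithelia of later embryos.

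The 10 genes described here, of 20240 gene models in the files, are those encoding these proteins: *erm-1*, *afd-1*, *hmr-1*, *hmp-2*, *hmp-1*, *jac-1*, *sax-7*, *tag-224* (the older name of *tes-1*, used by the files), *dlg-1* and *ajm-1*. They were grouped by function while the P1/AB ratios of these same libraries were known, and *erm-1*, *afd-1* and *tag-224* were known to be lower in P1. The study also names *hmp-2* among its AB-enriched transcripts. The ratios and calls of the 10 genes are therefore a description of these libraries and no independent evidence. All 10 passed the filter on low values.

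RNA was measured in AB, the larger anterior cell of the 2-cell embryo, and in P1, the smaller posterior cell, both dissected by hand from wild type (N2) embryos of worms grown at 20 °C. There were 3 AB and 3 P1 libraries, each from a pool of cells whose RNA was amplified by *in vitro* transcription before sequencing (RNA-amp-seq), and the AB and P1 library of 1 replicate number, made from pools of matched cells, form a pair. Values are normalized read counts, which are the reads counted on a gene model divided by a size factor of the library. They compare a transcript with the rest of its library, so the amount per cell was not measured, and in a pool fewer cells with a transcript and less of it per cell cannot be told apart.

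Library totals ran from 21249850 to 35591254 reads, and the 3-count floor from 0.0843 to 0.141 CPM, which covers counting error only because amplified reads are not independent molecules. P1 replicate 1 stood apart, with Pearson's r of log2 values between 0.911 and 0.924 with the other 5 libraries, which reached 0.951 to 0.980 with each other. All 14 fixed marker genes of oocytes and early embryos were present, and their summed level was 386694 to 518242 normalized read counts in AB and 380726 to 613267 in P1. *mex-3*, known for its RNA in AB, had 60132 to 65459 in AB and 28710 to 35357 in P1 (log2 fold change -0.98), without overlap. It was called lower in P1 with all 6 libraries, but the call was lost without AB replicate 1, 2 or 3 and without pair 2 or 3. Over the 9 fits with a library or pair removed, its log2 fold change lay between -1.09 and -0.95. The study cites earlier *in situ* work for higher *pos-1* RNA in P1, and for *cey-2* late in the 2-cell stage. Here both overlapped between the cells and were not called. *pos-1* had 68307 to 95167 in AB and 70502 to 113451 in P1 (log2 fold change 0.18). *cey-2* had 52881 to 73863 in AB and 58606 to 128089 in P1 (log2 fold change 0.47). The 8 sperm markers summed to at most 46.5 in any library. The adult and larval markers summed to 821 to 1134 in AB and 711 to 1437 in P1, most of it from *unc-119*. Among them *myo-3* had 51.2 in AB replicate 3, 5.43 in P1 replicate 1 and 0 in the other 4 libraries. The yolk protein genes *vit-2*, *vit-5* and *vit-6*, which are expressed in the adult intestine, summed to 255 and 291 in AB and P1 replicate 1 and to between 0.972 and 8.14 in the other 4 libraries.

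Of the 10 transcripts, *erm-1* was 5.02 times and *afd-1* 4.53 times as abundant in AB as in P1 by the edgeR estimate, and both were called lower in P1. *tag-224* and *hmp-2* were also lower in every P1 library than in any AB library, but neither was called. The other catenins, the cadherin, *sax-7*, *dlg-1* and *ajm-1* had overlapping values in the 2 cells. A call needed an adjusted *P* under 0.10 in edgeR's quasi-likelihood test, adjusted over the 13717 gene models with a read, and a present gene, with a mean above 10 normalized read counts. By this rule 2 of the 10 genes were called lower in P1 and 0 higher, where 0.604% and 0.856% of the 7945 present genes were called. DESeq2 and edgeR with the replicate number as a block each called 3 of the 10 lower, *erm-1*, *afd-1* and *hmp-2*, where 0.944% and 0.503% of present genes were called, and 0 higher. At an unadjusted *P* under 0.05 in edgeR without the block, 4 of the 10 were lower and 0 higher, as were 4.59% and 5.8% of present genes. All 3 P1 values lay below all 3 AB values for 4 of the 10 genes, as for 8.81% of present genes, and the reverse was found for 0, against 7.1% of present genes. In 5 of the 10, these 4 and *sax-7*, P1 was below AB in each of the 3 pairs, as in 21.4% of present genes. Because the genes were grouped with this contrast known, nothing is read from these shares. The median log2 fold change was -0.26 over the 10 genes and 0.01 over all present genes.

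**Figure D1:**
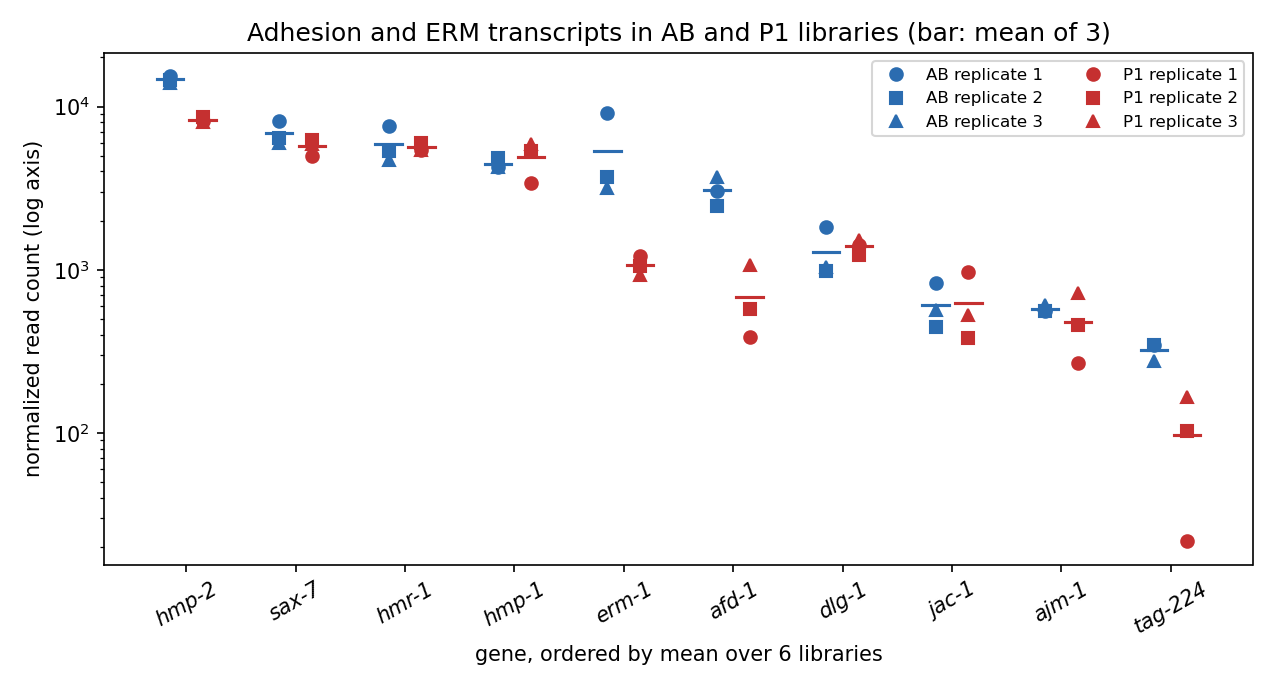
Normalized read counts (vertical log axis) of the 10 genes in the 3 AB libraries (blue) and the 3 P1 libraries (red), with bars at the mean of 3. The AB and P1 points of *erm-1*, *afd-1*, *hmp-2* and *tag-224* do not overlap, and AB replicate 1 of *erm-1*, at 9148, stands well above the other AB libraries.

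*erm-1* had 9148, 3679 and 3150 normalized read counts in AB replicates 1, 2 and 3, and 1210, 1056 and 923 in the P1 replicates. The P1 libraries were close to each other and all below the lowest AB library, which was 2.60 times the highest P1 library. The AB libraries were uneven, the highest at 2.90 times the lowest, and the mean was 5326 ± 3321 in AB and 1063 ± 143 in P1 (SD, n = 3). In edgeR the log2 fold change (P1/AB) came to -2.33 (standard error 0.30), and the gene was called. The high AB value belongs to pair 1, in which the yolk protein genes summed to 255 in AB and 291 in P1. Whether the *erm-1* value is linked to these reads was not tested. A fit without AB replicate 1 gave -1.71 and a fit of pairs 2 and 3 alone -1.79, and *erm-1* was called in both. The gene lies on chromosome I from 5284065 to 5291608 (ce10), and no exon of another annotated gene overlaps its exons. *afd-1*, the next gene, lies on the same chromosome from 2160045 to 2209631 (ce10).

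*afd-1* had 3031, 2461 and 3716 normalized read counts in AB and 390, 578 and 1063 in P1. All P1 libraries lay below all AB libraries, and the lowest AB library was 2.31 times the highest P1 library. Here the spread was in P1, where the highest library was 2.73 times the lowest. The means were 3069 ± 628 and 677 ± 347 (SD, n = 3), with a log2 fold change of -2.18 (standard error 0.30), and the gene was called. *erm-1* and *afd-1* were called in all 15 other fits, which changed the test, the filter, the scaling or the block or left out libraries.

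*tag-224* had the fewest reads of the 10, and the study also used it for single-molecule RNA FISH. The study lists the gene as AB-enriched. Its imaging found a higher particle density in AB than in P1, relative to a symmetric transcript in the same embryos. The probes for that experiment are 48 DNA oligonucleotides of 20 bases, with a GC content of 25 to 50%, that pair with the transcript on chromosome IV. The first, the least GC-rich and the last of them are shown because they mark on the transcript what the imaging of this gene detected. All are written 5′ to 3′ in lower case, with no part singled out.
tes-1 probe 1: agacgtgacgtcggtcatta
tes-1 probe 13: gttttctttcgtttcatttt
tes-1 probe 48: atgcttcgtctgcgcaaaaa

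The raw reads on *tag-224* were 333, 466 and 329 in AB replicates 1, 2 and 3 and 16, 88 and 172 in the P1 replicates. The corresponding normalized read counts were 344, 345 and 276 in AB and 21.7, 102 and 167 in P1. AB libraries lay close together, while the highest P1 library was 7.69 times the lowest, and P1 replicate 1, the library that stood apart, was the lowest. The edgeR log2 fold change was -1.72 (standard error 0.50), and *tag-224* was not called. Leaving out a library or a pair gave 9 fits, of which 6 called it, and the log2 fold change was -1.28 once P1 replicate 1 was left out. Of the 6 other fits, which kept all libraries and included DESeq2 and the replicate block, 0 called it. The locus in the files, chromosome IV from 7447968 to 7451434 (ce10), is shared with *B0496.2*, whose exons overlap those of *tag-224* on the opposite strand. Whether counting used strand is not given in the sources used here. *B0496.2* had no read in 5 libraries and 2.33 normalized read counts in P1 replicate 2. How reads in the shared exons were assigned was not tested, so these values do not settle whether the overlap affected *tag-224*.

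Of the 4 genes of the cadherin complex, *hmp-2* was the one whose AB and P1 values did not overlap. *hmr-1*, which encodes the cadherin, had 7583, 5352 and 4701 normalized read counts in AB and 5443, 5961 and 5435 in P1. The P1 values fell inside the AB range, and the log2 fold change was -0.07 (95% interval -0.55 to 0.41). With pairs 2 and 3 alone it was 0.17. The files place *hmr-1* in a merged locus of 79 gene models on chromosome I, so its own position is not printed.

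*hmp-2*, which encodes the beta-catenin of adhesion, had 15321, 14598 and 14002 normalized read counts in AB and 8123, 8572 and 8029 in P1. All P1 libraries were lower, and the lowest AB library was 1.63 times the highest P1 library. *hmp-2* varied the least of the 10 genes, with an SD of log2 values of 0.06 in AB and 0.05 in P1, where the medians over present genes were 0.22 and 0.43. Its log2 fold change was -0.83 (standard error 0.23, 95% interval -1.30 to -0.37), a fold of 1.78, and the pairs gave log2 ratios of -0.92, -0.77 and -0.80. It was not called in the test without a block. With the replicate number as a block it was called, at -0.83 with a standard error of 0.17, and DESeq2 called it at the same size. Of the 15 other fits, 5 called it. It lies on chromosome I from 14739558 to 14742646 (ce10).

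*hmp-1*, which encodes the alpha-catenin, had 4241, 4824 and 4272 normalized read counts in AB and 3398, 5342 and 5887 in P1. P1 had both the lowest and the highest library, and the log2 fold change was 0.13 (95% interval -0.36 to 0.62). *jac-1*, for the catenin near the membrane, had 826, 447 and 563 in AB and 975, 381 and 528 in P1, again with the AB values inside the P1 range. Its log2 fold change was 0.03 with a wide interval, from -0.65 to 0.71. Whether *hmr-1*, *hmp-1* and *jac-1* differed from *hmp-2* in their P1/AB ratio was not tested. *hmp-1* lies on chromosome V from 11845858 to 11852145 and *jac-1* on chromosome IV from 15997826 to 16026815 (ce10), where its exons overlap those of 3 annotated genes that encode no protein.

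Ratios between 2 genes within a library do not depend on how libraries are scaled. Per kilobase of spliced length, *hmp-2* was 8.52, 11.5 and 12.6 times as abundant as *hmr-1* in AB and 6.29, 6.06 and 6.23 times in P1. These ratios did not overlap between the cells and were nearly equal in the P1 libraries. For *hmp-1* over *hmr-1* the ratios per kilobase were 1.19, 1.91 and 1.93 in AB and 1.33, 1.90 and 2.30 in P1, and they overlapped. The ratio of *erm-1* to *hmr-1* per kilobase was 4.85, 2.76 and 2.69 in AB and 0.893, 0.712 and 0.683 in P1. Thus the *erm-1* level per length exceeded that of the cadherin in each AB library and was below it in each P1 library. The AB part depends on the division by length. In normalized read counts *erm-1* was above *hmr-1* in AB replicate 1, at 9148 against 7583. *erm-1* was below *hmr-1* in AB replicates 2 and 3, at 3679 against 5352 and 3150 against 4701. With the mean spliced length in place of the longest transcript, a setting chosen after seeing the data, all ratios to *hmr-1* were smaller, at 4.52 to 6.67 in AB and 3.22 to 3.34 in P1 for *hmp-2* and at 1.43 to 2.58 in AB and 0.363 to 0.475 in P1 for *erm-1*. The AB and P1 ranges of both ratios still did not overlap. As *hmr-1* differed little between the cells, both ratios largely restate the differences of *hmp-2* and *erm-1* themselves. The genes were grouped with those differences known, so the ratios are no independent evidence.

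**Figure D2:**
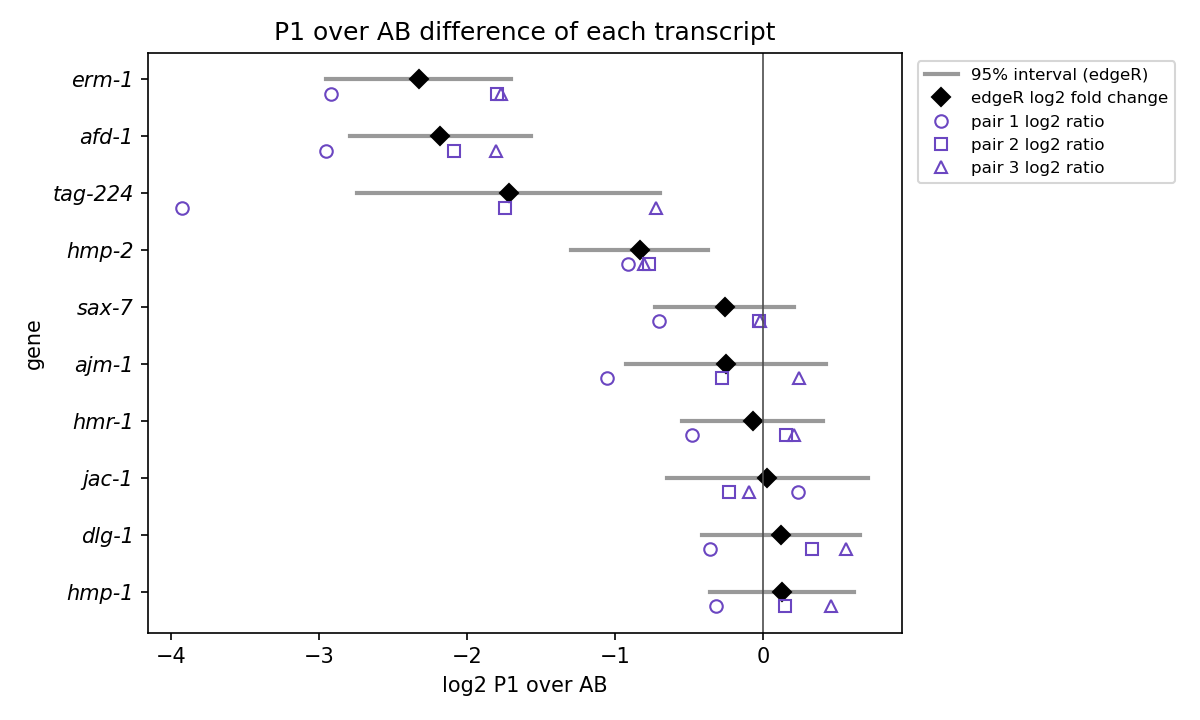
Log2 P1 over AB (horizontal axis) for each gene, with the edgeR estimate (black diamond), its 95% interval (grey bar) and the log2 ratio of each pair with a pseudocount of 1 (open symbols). The 3 pairs of *hmp-2* lie within -0.92 to -0.77, while those of *tag-224* run from -3.92 to -0.72.

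*sax-7*, for the L1 homolog, had 8121, 6397 and 5995 normalized read counts in AB and 4998, 6270 and 5906 in P1. P1 replicates 1 and 3 were below the lowest AB library, replicate 3 narrowly, and the pair log2 ratios were -0.70, -0.03 and -0.02. The log2 fold change was -0.26 (95% interval -0.73 to 0.21), and pairs 2 and 3 alone gave -0.03. It lies on chromosome IV from 8062655 to 8083637 (ce10). Its exons overlap those of *nsy-7* on the opposite strand, which had 586 to 770 in AB and 415 to 614 in P1, so a part of the reads of either gene is uncertain.

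The genes of the later junctional domain were read in the 2-cell embryo as well. *dlg-1* had 1826, 984 and 1034 normalized read counts in AB and 1423, 1239 and 1526 in P1, all P1 values inside the AB range. The log2 fold change was 0.12 (95% interval -0.41 to 0.66). *ajm-1* had 557, 556 and 604 in AB, a narrow range, and 267, 459 and 717 in P1. The P1 range enclosed that of AB, and the log2 fold change was -0.25 (95% interval -0.93 to 0.42). Without P1 replicate 1 it was 0.01. Both genes are on the X chromosome, *dlg-1* from 5479668 to 5484904 and *ajm-1* from 9098290 to 9113557 (ce10).

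The pair log2 ratio was lowest in pair 1 for 9 of the 10 genes, though by a small margin in *hmp-2*, and *jac-1* was highest there, at 0.24. The fits without libraries show how far the results rest on that pair. Over the 9 fits that left out a library or a pair, the log2 fold change lay between -2.59 and -1.71 for *erm-1*, between -2.66 and -1.92 for *afd-1*, between -2.46 and -1.21 for *tag-224* and between -0.89 and -0.79 for *hmp-2*. The range of *hmp-2* was the narrowest of these. Without P1 replicate 1, 4 of the 10 genes were called lower in P1, where 3.51% of present genes were called, and these were *erm-1*, *afd-1*, *tag-224* and *hmp-2*. The same 4 genes were called in the fit of pairs 2 and 3, where 3.01% of present genes were called lower, against 0.604% with all 6 libraries.

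**Figure D3:**
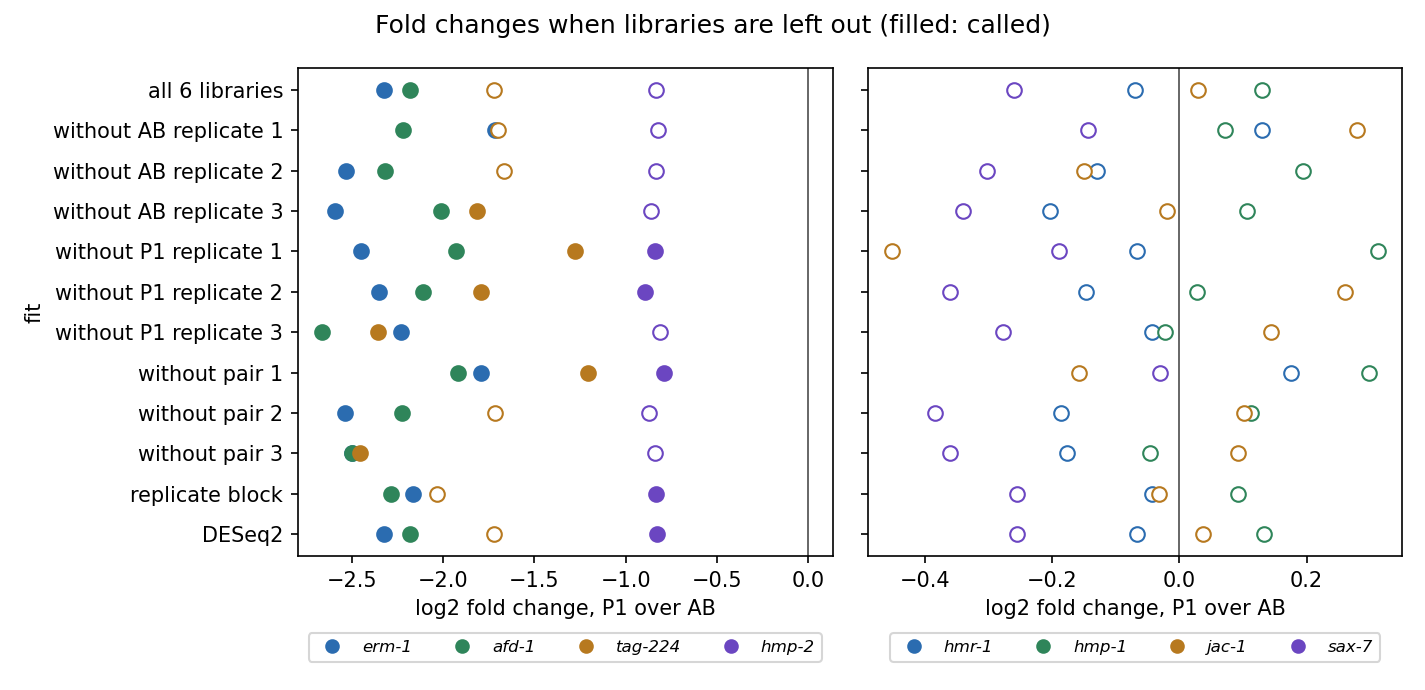
Log2 fold change, P1 over AB (horizontal axes, with different scales), of 8 genes in the fit of all 6 libraries and in fits that left out a library or a pair, had the replicate block or used DESeq2. Filled points were called; *erm-1* and *afd-1* are filled in each fit, while *hmr-1*, *hmp-1*, *jac-1* and *sax-7* are open in each.

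Levels of different genes were compared as normalized read counts per kilobase of the longest spliced transcript. Amplification started from oligo-dT primers, and whether reads covered transcripts evenly was not tested. Levels of genes of unlike length therefore compare only roughly. In AB, *hmp-2* was highest, at 6226 to 6812 per kilobase. *erm-1* was second, at 1335 to 3876, and overlapped *sax-7*, at 1112 to 1506. *hmp-1* came next, at 950 to 1080, then *hmr-1*, at 496 to 799, each below the range of the gene before it. *afd-1*, at 463 to 700 per kilobase, overlapped *hmr-1* and *dlg-1*. The lowest were *tag-224* and *jac-1*, which overlapped, and *ajm-1*, with a median of 92.1 per kilobase, below all libraries of *jac-1*.

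In P1, *erm-1* stood at position 5 and *afd-1* at position 8, against 2 and 6 in AB. *hmp-2* was again highest, at 3570 to 3812 per kilobase, and *hmp-1* and *sax-7* overlapped at 761 to 1318 and 927 to 1163. *hmr-1* followed, at 573 to 628 per kilobase, and then *erm-1*, at 391 to 513, overlapping *dlg-1*. *afd-1*, at 73.4 to 200.2 per kilobase, overlapped *jac-1* and *ajm-1*. *tag-224* was last, at 13.0 to 99.7. Over both cells, *hmp-2* lay at percentile 89.4 of the present genes in level per kilobase and *ajm-1* at 24.2, with the other 8 between them. With the mean spliced length of all transcripts of a gene in place of the longest, 5 of the 10 genes kept their position, since genes such as *hmr-1* have transcripts of very different length (9485 bases for the longest, 4965 on average).

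The present genes whose log2 values followed *erm-1* most closely over the 6 libraries were *tbc-17* (Pearson's r 0.993), *F10E7.2* (0.991) and *R10E11.6* (0.987). They were high and low in much the same libraries, but over a narrower range, with log2 fold changes of -0.46, -0.31 and -0.45, and none was called. Among the 10 genes, *hmp-2* was most like *erm-1* (r 0.939). For *tag-224* the closest were *K01G12.3* (r 0.995), *F45C12.15* (0.994) and *C35C5.3* (0.992), with log2 fold changes of -1.20, -0.59 and -0.41, and none of them was called. With 6 libraries these correlations describe the libraries only, since the cell and the replicate number are common to all genes.

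Related genes were taken from 6 lists with 89 genes, of which 85 were found in the files and 71 were present. Of these 71, 2 were called lower in P1 and 0 higher, where 0.604% and 0.856% of present genes were called. The lists were chosen with earlier results of these data known, so nothing is read from these counts. Both called genes were among the 18 present FERM domain and apical cortex genes, the list to which ERM-1 is closest by its FERM domain. Of the 2, only *frm-7* is a FERM domain gene. *sma-1*, which encodes the beta-heavy spectrin of the apical cortex, had 3579, 2802 and 2965 normalized read counts in AB and 1263, 1781 and 1710 in P1. Its log2 fold change was -0.98 (standard error 0.23, edgeR adjusted *P* = 0.0423). *frm-7*, a FERM domain gene, had 4632, 3811 and 3111 in AB and 1439, 2276 and 2200 in P1, with a log2 fold change of -0.97 (standard error 0.24, edgeR adjusted *P* = 0.0615). Both had AB and P1 values that did not overlap, and P1 replicate 1 was the lowest library of each. With the replicate block neither was called (edgeR adjusted *P* = 0.148 for *sma-1* and 0.237 for *frm-7*). Over the 15 other fits the adjusted *P* lay between 0.000107 and 0.304 for *sma-1* and between 0.000225 and 0.315 for *frm-7*. *frm-1* and *frm-4*, the most abundant of this list, had log2 fold changes of -0.49 and -0.34 and were not called.

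In the other 5 lists, with 53 present genes, edgeR and DESeq2 each called 0, and at an unadjusted *P* under 0.05 edgeR had 5 lower and 0 higher, where 4.59% and 5.8% of present genes passed. Among 15 present cadherin junction partners, *picc-1* and *srgp-1* were the most abundant, with means of 17204 and 13430 normalized read counts and log2 fold changes of -0.19 and -0.35. PICC-1 links the cadherin complex to the RhoGAP PAC-1, and SRGP-1 is a further RhoGAP found at junctions. *srgp-1* shared with *erm-1* a high AB replicate 1, at 22214 against 11583 and 11357 in the other AB libraries. Only 5 of 11 other cadherins were present, and *cdh-4*, a Fat-like cadherin, was the most abundant, with 9247 ± 1405 in AB and 6755 ± 2919 in P1 (SD, n = 3). The next was *casy-1*, with a log2 fold change of 0.03. Among immunoglobulin adhesion receptors, *rig-4*, a Sidekick homolog, and *unc-40*, which encodes the netrin receptor DCC, had log2 fold changes of -0.38 and -0.12. For the integrin subunits *pat-3* and *ina-1* they were -0.23 and -0.14. In the same list *emb-9* and *let-2*, the collagen IV chains, had log2 fold changes of -5.88 and -4.56 that rest on AB replicate 3, with 91.5 and 129 normalized read counts, and were not called. Of the epithelial polarity and fate genes, *lgl-1* and *lin-7* were the most abundant, with log2 fold changes of 0.06 and 0.40. The list medians lay between -0.46 and 0.00, the median over all present genes at 0.01, and 48 of the 71 genes (67.6%) had a negative value, as had 48.7% of present genes.

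**Figure D4:**
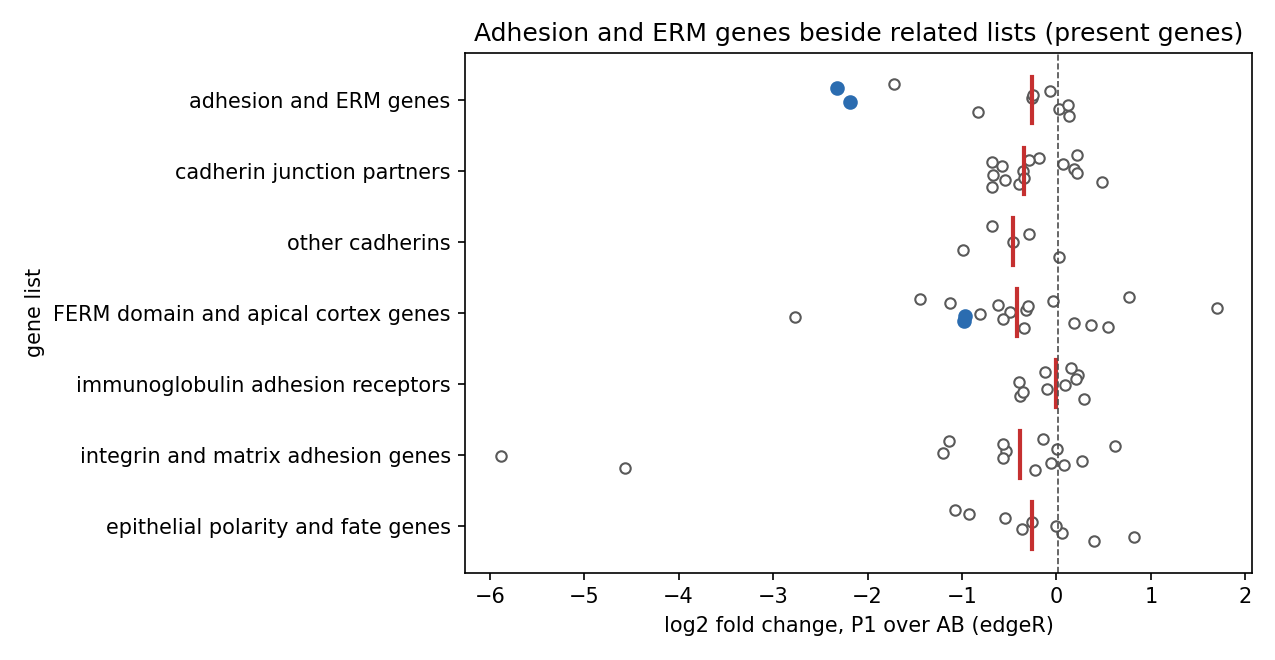
Log2 fold change, P1 over AB (horizontal axis), of the present genes of the adhesion and ERM group and of 6 related lists; filled points were called, red bars are list medians and the dashed line is the median of all present genes, 0.01. The filled points are *erm-1*, *afd-1*, *sma-1* and *frm-7*, and the 2 far left points of the matrix list, *emb-9* and *let-2*, were not called.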

How the data were processed

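The authors filtered reads with Tagdust, aligned them to ce10 with TopHat 1.4.0 and counted them per RefSeq gene model (WS220) with HTSeq 0.5.3. Raw counts were deposited, and beside them a normalized signal, for which the authors scaled each library's counts by its DESeq 1.2.1 size factor. Starts in the files count from 0 and were printed from 1.

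For fold changes, edgeR 4.0.16 under R 4.3.3 was run on the raw counts (glmQLFTest, TMM, no block, Benjamini-Hochberg adjustment over models with at least 1 read) across all genes. The test was checked on simulated independent counts, which had no pairs and no library that stood apart. Nothing is read from that check. Levels, lists and figures used Python 3.11.15 and matplotlib 3.10.9. Spliced lengths and exon overlaps came from the WBcel235 annotation by WormBase identifier, with no coordinate taken from it. A length was found for 98.2% of present genes. Listed genes were matched by public name, or by identifier where renamed.

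The study states that matched cells were pooled per replicate. Same-numbered libraries deviated together weakly from their cell means (r = 0.175, 0.220 and 0.173). Libraries of unlike number were not compared, so the pairing rests on the study's statement. The genes, lists and tests were chosen with earlier results of these data known. Named were all 10 genes, listed genes that were called or were the 2 most abundant of a list, overlapping genes, and the 3 genes most like *erm-1* and *tag-224*. Alternatives were the block, DESeq2 1.42.0, median-of-ratios scaling, other filters, a threshold of 0.05 and left-out libraries.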

Additional observations from a re-analysis of the deposited data

How the results depend on the processing

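With the replicate block, of the 10 genes only *hmp-2* changed its call (log2 fold change -0.83), and *jac-1* reversed, to -0.032. The edgeR adjusted *P* of *hmp-2* was 0.109 without the block and 0.0978 with it. The FERM domain list had 2 genes called lower in P1, but 0 with the block, with present genes only or with filterByExpr, and 1 at an adjusted p under 0.05. The block changed no other count of a list. When a library or a pair was left out, the number of the 10 genes called lower ran from 2 to 4. The numbers called lower ran from 0 to 2 for cadherin junction partners, 0 to 1 for other cadherins, 0 to 4 for FERM domain genes and 0 to 3 for integrin and matrix genes. The numbers called higher ran from 0 to 1 for junction partners and for FERM domain genes. Other counts stayed at 0. The numbers called over all genes also moved between these fits, from 27 to 279 lower and from 44 to 293 higher. Counts of a list in different fits therefore do not compare directly. In these fits the log2 fold change ran from -0.20 to 0.17 for *hmr-1*, -0.047 to 0.31 for *hmp-1*, -0.45 to 0.28 for *jac-1*, -0.65 to 0.015 for *ajm-1* and -0.074 to 0.45 for *dlg-1*. It ran from -0.22 to 0.17 for *casy-1*, -0.18 to 0.31 for *lgl-1* and -0.12 to 0.86 for *lin-7*. It ran from -0.43 to 0.0498 for *picc-1*, -0.51 to 0.012 for *srgp-1*, -0.41 to 0.30 for *unc-40*, -0.59 to 0.11 for *pat-3* and -0.39 to 0.084 for *ina-1*. The cause of these changes was not tested. Over all genes, 48 were called lower and 68 higher, against 25 and 27 with present genes only and 279 and 255 without P1 replicate 1. The scaling moved the median of present genes by less than 0.1. Of the 10 genes, *tag-224* had the lowest read count in any library, 16 in P1 replicate 1.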
